A study of Rattus norvegicus with 20 samples.

Results

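Chondroitin sulfate proteoglycans of the nervous system and their link proteins were followed across 5 regions of the injured rat brain and spinal cord. The genes were taken by name. They were the lecticans Acan, Bcan, Ncan and Vcan, the membrane proteoglycans Cspg4, Cspg5 and Ptprz1, and the link proteins Hapln1, Hapln2 and Hapln4. Each of the 10 had 1 entry among the 30443 genes listed. All 10 were among the 15210 genes with at least 1 FPKM in any of the 20 libraries. FPKM is the number of sequenced fragments per kilobase of transcript, scaled to the mapped fragments of the library, so levels can be set side by side between genes. Acan passed this filter through its 12 spinal cord libraries alone.

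RNA came from 4 adult female wild-type Long-Evans rats, an outbred strain, about 6 to 8 months old. All 4 animals, the controls included, had received a hemicontusion at cervical level 4 and, 2 weeks later, an electrode array in the motor cortex opposite the injury. Beginning 1 week after that, 2 animals were stimulated for 1 week, for 5 hours a day at 10 Hz, with 5 min on and 2 min off, at 80% of the current that moved the forelimb. The other 2 were the control animals and were handled in the same way without this stimulation. In all 4 animals, the controls included, the wires had been tested with pulses of current 1 week after implantation. Region 1 was white matter beneath the array and region 2 the same tissue in the other hemisphere. Regions 3, 4 and 5 were pieces of cervical cord above, at and below the lesion, with gray and white matter. No uninjured animal was analysed here, so every value is a level in an injured and implanted animal. Each animal gave 1 library per region. In region comparisons, p-values measure the spread between the libraries of a region, pooled over regions. The main model had no term for the animal there, so libraries of 1 animal counted as separate. In stimulation comparisons, p-values measure the spread between the animals of a group.

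The tissue labels were checked against marker genes. The summed FPKM of 3 markers of cortical excitatory neurons (Slc17a7, Tbr1 and Neurod6) was 249 to 363 in regions 1 and 2 and 1.26 to 14.3 in regions 3 to 5. The 8 libraries labelled white matter thus held RNA of cortical neurons. The sum of 6 mature oligodendrocyte markers was 708 to 2943 in white matter and 7403 to 10779 in cord. The white matter libraries of stimulated animal 2 stood apart from the rest. Over log2 FPKM their mean correlation with the other 3 animals was 0.913 for region 1 and 0.912 for region 2, and 0.957 to 0.964 for the other 6 white matter libraries. The summed level of 5 macrophage and microglia markers was 202 and 186 FPKM in these libraries and 25.7 to 119 in the other 6. FPKM alone does not show how many reads lie behind a value.

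Chondroitin sulfate proteoglycans are core proteins that carry long sulfated sugar chains. Lecticans bind hyaluronan at their head and tenascins at their tail, and link proteins clamp the lectican head to hyaluronan. The resulting lattice forms perineuronal nets around many neurons, fast-spiking cells among them, and the matrix at nodes of Ranvier. After spinal cord injury, glial cells and precursors around the lesion deposit these proteoglycans, and their chains hold back growing axons.

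Each link protein gene lies beside a lectican gene. In the RefSeq annotation of GRCr8, a later build than the one used for the FPKM values, Hapln1 with Vcan and Hapln2 with Bcan on chromosome 2, Hapln4 with Ncan on chromosome 16 and Hapln3 with Acan on chromosome 1 had 0 protein-coding genes between them. The upstream sequences of 3 of these pairs are shown, those in which both partners had an entry in the RefSeq promoter table. They are the 250 bases before each RefSeq gene start, 5′ to 3′ on the strand of the gene. The minus-strand stretches were chr2:175794439-175794688 for Hapln2, chr2:175765315-175765564 for Bcan, chr2:22595956-22596205 for Vcan and chr16:19375174-19375423 for Hapln4. The plus-strand stretches were chr2:22366717-22366966 for Hapln1 and chr16:19335657-19335906 for Ncan. Capitals mark matches, on either strand, to a SOX motif (ACAAAG or ACAATG), an E-box (CAGCTG) or a GC box (GGGCGG, which reads CCGCCC from the other strand).
Hapln2: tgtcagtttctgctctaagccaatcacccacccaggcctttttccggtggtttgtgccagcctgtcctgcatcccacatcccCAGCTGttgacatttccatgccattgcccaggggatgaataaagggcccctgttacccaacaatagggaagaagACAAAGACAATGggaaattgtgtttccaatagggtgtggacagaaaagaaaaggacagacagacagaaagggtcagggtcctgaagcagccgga
Bcan: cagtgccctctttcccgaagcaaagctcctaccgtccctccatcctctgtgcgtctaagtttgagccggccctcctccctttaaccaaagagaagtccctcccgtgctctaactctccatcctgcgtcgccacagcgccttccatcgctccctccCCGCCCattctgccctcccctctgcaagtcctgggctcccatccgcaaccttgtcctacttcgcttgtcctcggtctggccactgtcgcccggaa
Hapln1: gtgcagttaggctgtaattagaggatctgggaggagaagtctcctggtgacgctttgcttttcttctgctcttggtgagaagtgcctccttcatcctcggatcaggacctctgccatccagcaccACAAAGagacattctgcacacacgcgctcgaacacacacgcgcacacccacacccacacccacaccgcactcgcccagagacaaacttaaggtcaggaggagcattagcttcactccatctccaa
Vcan: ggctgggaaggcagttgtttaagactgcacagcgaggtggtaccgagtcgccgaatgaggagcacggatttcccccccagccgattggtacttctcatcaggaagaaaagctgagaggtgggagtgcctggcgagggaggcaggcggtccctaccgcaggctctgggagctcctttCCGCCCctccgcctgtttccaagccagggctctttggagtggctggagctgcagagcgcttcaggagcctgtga
Hapln4: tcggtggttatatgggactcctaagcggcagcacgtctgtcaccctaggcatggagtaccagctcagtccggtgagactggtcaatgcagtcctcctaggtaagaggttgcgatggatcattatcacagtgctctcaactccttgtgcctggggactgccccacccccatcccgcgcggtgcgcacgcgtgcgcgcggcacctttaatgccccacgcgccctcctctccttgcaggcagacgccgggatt
Ncan: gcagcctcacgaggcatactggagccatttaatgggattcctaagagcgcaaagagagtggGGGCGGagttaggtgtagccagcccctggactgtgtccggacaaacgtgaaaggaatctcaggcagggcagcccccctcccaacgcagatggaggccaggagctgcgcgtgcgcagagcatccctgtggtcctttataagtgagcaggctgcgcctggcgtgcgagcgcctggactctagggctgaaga

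The Hapln2 stretch held 2 adjoining SOX matches and 1 E-box, and the Hapln1 stretch held 1 SOX match. Hapln4 held no match to any of these motifs, and Bcan, Vcan and Ncan held 1 GC box each. Of the 27457 promoters of this length in the table, 24.8% held the SOX letters, 11.9% the E-box and 32.4% the GC box. The AP-1 letters TGANTCA were in 6.36% of promoters and the STAT letters TTCNNNGAA in 7.52%, and neither was in the 8 stretches at hand for these genes. Of the other genes with an entry, Acan held 3 GC boxes and Cspg4 held 2. A match describes the letters only.

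The lecticans differed widely in level. Bcan, brevican, was the most abundant in every region by mean, and Ncan, neurocan, came next. Bcan was 38.9 to 69.9 FPKM in white matter, with a median of 46.8, and 65.5 to 80.6 in cord, with a median of 73.6. Acan, aggrecan, the lectican of the densest perineuronal nets, was the lowest. It was 0.467 to 0.952 FPKM in white matter, with a median of 0.523, and 1.95 to 2.85 in cord, with a median of 2.50. The ranges of Acan did not overlap, while those of Bcan shared 1 white matter library, region 1 of stimulated animal 1.

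White matter (regions 1 and 2) was compared with cord (regions 3, 4 and 5) by limma on log2 FPKM, in 1 model of all 20 libraries. Acan is set apart from the counts, since the filter on low levels admitted it through cord alone and it had to differ. Of the other 9 genes, 7 passed an adjusted p of 0.05, with 2 higher and 5 lower in white matter. Of all genes 72.2% passed, 25.0% higher and 47.1% lower, and here the size of a difference says more than its call. As a description with no test, the log2 difference of Acan was -2.07 (SE 0.12). The difference for Bcan was -0.56 (SE 0.07, adjusted p = 1.2e-06). The median log2 difference was -0.28 over the 9 genes and -0.18 over all genes. Another scaling of the libraries moved the median of all genes to -0.04 (quantile) or -0.10 (upper quartile). It also moved the split of all calls from 3808 higher and 7169 lower to 5054 and 6018 with quantile scaling. The directions of the 7 called genes held under both scalings.

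Vcan, versican, a lectican of precursor cells and loose matrix, was 2.40 to 16.1 FPKM in white matter, with a median of 4.97, and 7.76 to 12.2 in cord, with a median of 10.3. Its log2 difference was -1.14 (SE 0.17, adjusted p = 9.2e-06). The ranges overlapped through 1 library alone, region 1 of stimulated animal 2, which held the highest Vcan of all 20. Without this animal the log2 difference of Vcan was -1.43 (adjusted p = 2.8e-10). Ncan was 15.1 to 74.9 FPKM in white matter, with a median of 29.7, and 16.6 to 34.4 in cord, with a median of 26.1. Its difference did not pass the test (0.09, SE 0.17, adjusted p = 0.67). Without stimulated animal 2 it turned to -0.21 and passed (adjusted p = 0.034), so the value for Ncan was decided by that animal.

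The membrane proteoglycans moved in opposite directions. Cspg5, neuroglycan C, a transmembrane proteoglycan of neurons, was 47.6 to 69.5 FPKM in white matter, with a median of 67.0, and 14.0 to 26.1 in cord, with a median of 20.2. The ranges were far apart, and the log2 difference was 1.64 (SE 0.08, adjusted p = 1.1e-12). Cspg4, known as NG2 and carried by oligodendrocyte precursors and pericytes, was 1.91 to 3.37 FPKM in white matter, with a median of 2.72, and 3.45 to 8.66 in cord, with a median of 5.72. This gave a log2 difference of -1.03 (SE 0.11, adjusted p = 8.1e-08). Ptprz1, a receptor phosphatase of glia whose secreted form is phosphacan, varied little, from 16.5 to 27.1 FPKM in white matter and 21.8 to 31.4 in cord. It was still lower in white matter by the test (-0.28, SE 0.06, adjusted p = 0.00046).

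Hapln2 differed most of the 10 genes between the tissues, and the other link proteins by less. Hapln2, known as Bral1 and found at nodes of Ranvier in central white matter, was 6.97 to 12.2 FPKM in white matter, with a median of 7.60, and 56.1 to 77.3 in cord, with a median of 67.3. The means of the regions spanned 8.73-fold, the widest span of the 10 genes. The log2 difference was -2.98 (SE 0.10, adjusted p = 2.8e-15), and 343 of the 15210 genes had a larger one in absolute size. Hapln1, the link protein first known from cartilage, ran the other way. It was 7.41 to 13.5 FPKM in white matter, with a median of 10.9, and 3.20 to 7.94 in cord, with a median of 4.83. This was a log2 difference of 1.23 (SE 0.10, adjusted p = 3.7e-09), and its ranges overlapped through region 1 of stimulated animal 2 and region 3 of control animal 2. Hapln4, known as Bral2 and a part of nets in the brainstem and cerebellum, was 12.3 to 26.6 in white matter and 16.9 to 28.2 in cord. Its difference of -0.19 (SE 0.11) did not pass (adjusted p = 0.12), but did without control animal 1 (-0.31, adjusted p = 0.037).

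Apart from Acan, groups did not overlap for 3 of the 9 genes, with Cspg5 above and Cspg4 and Hapln2 below in white matter, against 27.1% of all genes. Oligodendrocyte marker sums were lower and cortical neuron marker sums higher in the same libraries, as given above. Their part in these differences was not tested. In bulk tissue, fewer cells of a type and less RNA per cell cannot be told apart.

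**Figure D1:**
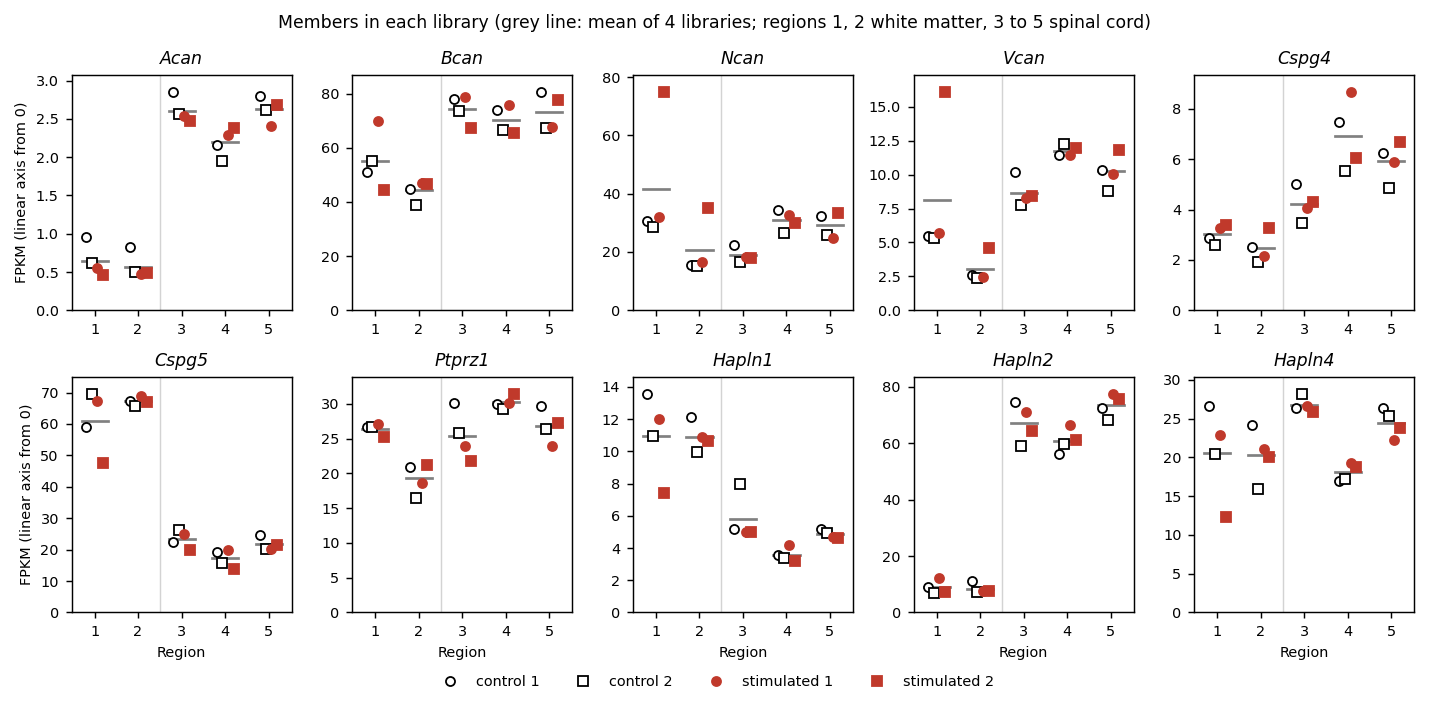
FPKM (linear axis from 0) of the 10 genes in each of the 20 libraries, by region, with open symbols for control and filled symbols for stimulated animals, circles for animal 1 and squares for animal 2, and a grey line at the mean of 4 libraries. Hapln2 and Acan lie low in regions 1 and 2 and high in regions 3 to 5, Cspg5 and Hapln1 do the reverse, and stimulated animal 2 holds the highest Ncan (74.9) and Vcan (16.1) in region 1.

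The make-up of the matrix genes changed with the tissue. Among the 3 link proteins, Hapln2 made up 22.4% ± 4.7 (SD, n = 4) of the summed FPKM in region 1 and 21.2% ± 2.0 in region 2. It made up 67.2% ± 3.7 in region 3, 73.7% ± 0.51 in region 4 and 71.5% ± 2.4 in region 5. Hapln4 held the largest share in white matter, with 50.4% ± 4.0 in region 1 and 51.1% ± 2.3 in region 2. The share of Hapln1 was 27.3% ± 1.3 in region 1 and 4.34% ± 0.39 in region 4. The lectican mixture shifted less. Bcan made up 54.2% ± 14.5 of it in region 1 and 71.2% ± 2.2 in region 3, and Acan never exceeded 2.58% in any library.

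**Figure D2:**
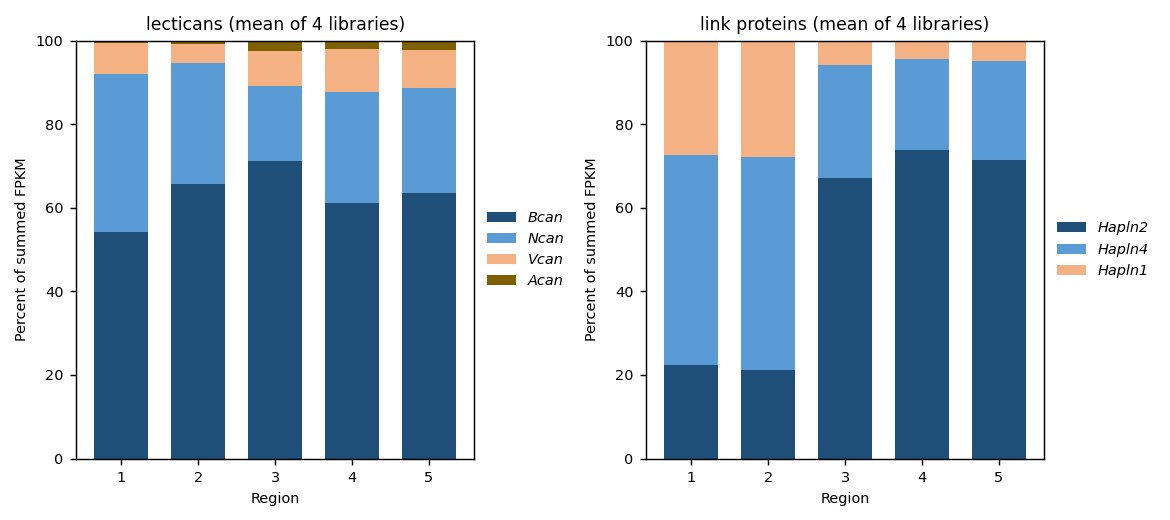
Mean share (percent, n = 4 libraries) of the summed FPKM of the lecticans (left) and of the link proteins (right) in each region. Hapln2 takes 67.2 to 73.7% of the link protein sum in cord and 21.2 to 22.4% in white matter, while Bcan is the largest lectican share throughout.

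The neighbouring genes were set side by side as a description over the 20 libraries, which share animals and tissue. Hapln2 and Bcan varied together (Pearson's r = 0.881), although Hapln2 was 0.161 ± 0.024 of Bcan in region 1 and 0.903 ± 0.071 in region 3 (SD, n = 4 each). Hapln1 and Vcan ran in opposite directions (r = -0.780). The ratio of Hapln1 to Vcan was 3.85 ± 1.05 in region 2 and 0.305 ± 0.043 in region 4. Hapln4 and Ncan had r = -0.506, and Hapln3 and Acan had r = 0.095. Stronger values occurred between genes that are not neighbours, such as 0.977 for Hapln2 with Acan and -0.874 for Hapln1 with Cspg4. Hapln3 was low in all libraries, with 0.486 to 1.17 FPKM. After the mean of each region was taken off, r was 0.552 for Hapln2 with Bcan and -0.632 for Hapln1 with Vcan. It was -0.526 for Hapln4 with Ncan and -0.508 for Hapln3 with Acan. The closest pair of members was then Ncan with Vcan (r = 0.939), and stimulated animal 2 held the highest white matter level of both.

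The lesion itself was compared with the cord above it. Of the 10 genes, 4 passed between region 4 and region 3, against 19.6% of all genes. Cspg4 was higher at the lesion, against 6.78% of all genes, and Hapln1, Hapln4 and Cspg5 were lower, against 12.8%. With the animal as a block, which uses that the same 4 animals gave both regions, 6 of the 10 passed, against 24.0% of all genes. The median log2 difference was -0.11 over the 10 genes and -0.02 over all genes. Quantile scaling raised the share of all genes that passed to 31.8%.

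Cspg4 in region 3 was 5.02 and 3.45 FPKM in control animals 1 and 2, and 4.05 and 4.29 in stimulated animals 1 and 2. In region 4 it was 7.49, 5.54, 8.66 and 6.06 in the same order. All 4 lesion values lay above all 4 rostral values, and the ratio within an animal was 1.41 to 2.14. This was a log2 difference of 0.71 (SE 0.17, adjusted p = 0.0072). It missed the threshold without control animal 1 (0.76, adjusted p = 0.053) or stimulated animal 1 (0.59, adjusted p = 0.090).

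Ncan and Vcan, the other matrix genes with higher values at the lesion, fell short of the threshold. Ncan was 22.6, 16.6, 18.4 and 17.8 FPKM in region 3 and 34.4, 26.5, 32.5 and 30.0 in region 4, with the animals in the order above. The groups did not overlap and every animal was higher at the lesion, by 1.52 to 1.77 times. The log2 difference was 0.71 (SE 0.27, adjusted p = 0.069). With the animal as a block it passed (adjusted p = 0.029), as it did without stimulated animal 2 (0.70, adjusted p = 0.0014). Ncan also passed with quantile or upper-quartile scaling (adjusted p = 0.045 and 0.044), under which 31.8% and 30.3% of all genes passed. Vcan was 10.2, 7.76, 8.28 and 8.44 in region 3 and 11.4, 12.2, 11.5 and 12.0 in region 4, again without overlap. Its log2 difference was 0.45 (SE 0.27, adjusted p = 0.25), and it passed without stimulated animal 2 (0.43, adjusted p = 0.0048). The model shares 1 estimate of spread over all regions, and without this animal the SE in this cord comparison was 0.13 for Ncan and 0.10 for Vcan. Ptprz1 went from 21.8 to 30.1 FPKM in region 3 to 29.2 to 31.4 in region 4 (0.26, SE 0.09, adjusted p = 0.060). It passed with the animal as a block (adjusted p = 0.045) and with quantile or upper-quartile scaling (adjusted p = 0.016 and 0.012).

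The link proteins of nets were lower at the lesion. Hapln4 was 26.4, 28.2, 26.7 and 25.9 FPKM in region 3 and 16.9, 17.2, 19.3 and 18.8 in region 4. The groups were well separated and the ratio within an animal was 0.610 to 0.727. This was a log2 difference of -0.57 (SE 0.17, adjusted p = 0.024). Hapln1 was 5.20, 7.94, 5.02 and 4.97 in region 3 and 3.58, 3.38, 4.17 and 3.20 in region 4. Its log2 difference was -0.67 (SE 0.16, adjusted p = 0.0083). Control animal 2 held the high rostral value, and without it the difference was -0.48 and did not pass (adjusted p = 0.15).

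Hapln4 missed the threshold without control animal 1 (adjusted p = 0.092), control animal 2 (adjusted p = 0.18) or stimulated animal 1 (adjusted p = 0.096). Cspg5 was 22.4, 26.1, 24.8 and 19.96 FPKM in region 3 and 19.2, 15.9, 20.03 and 13.96 in region 4. Every animal was lower at the lesion, but the groups overlapped. The log2 difference was -0.44 (SE 0.12, adjusted p = 0.020), and it was lost without control animal 1 (adjusted p = 0.070), control animal 2 (adjusted p = 0.21) or stimulated animal 1 (adjusted p = 0.059). Hapln2 and Bcan, which overlapped between these regions, had log2 differences of -0.14 and -0.08 and did not pass. Acan was 2.47 to 2.85 FPKM in region 3 and 1.95 to 2.38 in region 4, without overlap, yet with a log2 difference of -0.25 (SE 0.19, adjusted p = 0.37). In all, 6 of the 10 genes did not overlap between these regions, against 28.8% of all genes.

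Several marker sums moved with these differences. The sum of 5 neuron markers was 807 to 1031 FPKM in region 3 and 552 to 686 in region 4. That of 3 markers of fast-spiking neurons (Pvalb, Kcnc1 and Syt2) was 136 to 180 and 86.3 to 106. Macrophage and microglia markers summed to 58.8 to 88.4 and 129 to 265, and astrocyte markers to 1479 to 1916 and 2201 to 2945. Schwann cell markers summed to 13.3 to 62.2 and 75.4 to 114, and fibroblast markers to 17.5 to 23.04 and 23.15 to 43.2. Spinal neuron markers summed to 96.8 to 112 and 80.5 to 94.9, and cortical excitatory neuron markers to 2.11 to 14.3 and 1.26 to 1.54. The sums of oligodendrocyte precursors, mature oligodendrocytes and endothelial cells overlapped between these regions. Over the 12 cord libraries the fast-spiking sum varied closely with Hapln4 (r = 0.969) and Hapln1 (r = 0.957). The sum of general neuron markers did so almost as closely (r = 0.942 and 0.931). The libraries share animals and regions, so these are descriptions, and the part of the cell types was not tested.

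No gene of the set passed between region 4 and region 5, against 7.99% of all genes. The smallest adjusted p was 0.084, for Hapln1 (-0.45, SE 0.16). Cspg5 (-0.34, SE 0.12, adjusted p = 0.088) and Hapln4 (-0.43, SE 0.17, adjusted p = 0.098) came next. At an unadjusted p under 0.05 there were 3, against 29.0% of all genes. Acan, Cspg5, Hapln1, Hapln2 and Hapln4 all lay lower at the lesion without overlap, against 18.1% of all genes in either direction. Most calls over all genes were lower at the lesion too, 1074 against 142 higher, and upper-quartile scaling turned this to 299 lower and 329 higher. With the animal as a block, 12.9% of all genes passed and again none of the 10.

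No gene of the set passed between region 5 and region 3 either, against 4.32% of all genes, and 2 had an unadjusted p under 0.05, against 24.7%. Cspg4 was 4.86 to 6.68 FPKM below the lesion and 3.45 to 5.02 above it. It had a log2 difference of 0.50 (SE 0.17, adjusted p = 0.095), and was the 1 gene that passed with the animal as a block (adjusted p = 0.033), against 6.09% of all genes. Ncan was 24.9 to 33.4 and 16.6 to 22.6 FPKM in the same order, and was the 1 gene without overlap, against 25.5% of all genes. Its log2 difference was 0.62 (SE 0.27, adjusted p = 0.17), and it passed without stimulated animal 2 (adjusted p = 0.028).

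Region 1 beneath the array was compared with region 2 in the other hemisphere. Of the 10 genes, 3 passed, all higher in region 1, against 8.61% of all genes, and 6.86% in that direction. These were the lecticans Vcan and Ncan and the phosphatase Ptprz1. Calls over all genes were 1043 higher and 267 lower, and 943 and 841 with quantile scaling. All 3 of the genes passed with that scaling as well. With the animal as a block, which uses that the same animals gave both regions, 12.2% of all genes passed. Vcan (adjusted p = 0.0032), Ptprz1 (adjusted p = 0.0056) and Ncan (adjusted p = 0.011) passed again, and no other gene of the set did.

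Ncan in region 1 was 30.8 and 28.7 FPKM in control animals 1 and 2 and 32.0 and 74.9 in stimulated animals 1 and 2. In region 2 it was 15.6, 15.1, 16.6 and 35.0 in the same order. Within each animal the ratio was 1.97, 1.91, 1.93 and 2.14, so that animals with very different levels had almost the same ratio. Its mean log2 difference was 0.99 (SE 0.27, adjusted p = 0.031). In this model, which has no animal block, it did not pass without control animal 1, control animal 2 or stimulated animal 1 (adjusted p = 0.17, 0.15 and 0.27). It was firmer without stimulated animal 2 (0.95, adjusted p = 0.00022).

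Vcan was 5.45, 5.32, 5.69 and 16.1 FPKM in region 1 and 2.63, 2.40, 2.49 and 4.62 in region 2. The groups did not overlap, and every animal was higher in region 1, by 2.07, 2.22, 2.29 and 3.48 times. The log2 difference was 1.30 (SE 0.27, adjusted p = 0.0083), with an adjusted p of 0.078, 0.083 and 0.15 without control animal 1, control animal 2 and stimulated animal 1, and 1.5e-05 without stimulated animal 2. Ptprz1 was 26.6, 26.7, 27.1 and 25.2 FPKM in region 1 and 20.9, 16.5, 18.7 and 21.2 in region 2, also without overlap. Ptprz1 had a log2 difference of 0.46 (SE 0.09, adjusted p = 0.0081), and it was lost without control animal 2 (0.38, adjusted p = 0.13) or stimulated animal 1 (0.43, adjusted p = 0.17). Groups did not overlap for these 2 genes of the 10, against 7.57% of all genes.

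The other 7 genes did not pass. Bcan had a log2 difference of 0.30 (SE 0.11, adjusted p = 0.10), and passed without stimulated animal 2 (0.42, adjusted p = 0.018) and with quantile or upper-quartile scaling (adjusted p = 0.018 and 0.041). Cspg4 had 0.32 (SE 0.17, adjusted p = 0.26). Hapln1, Hapln2 and Hapln4 had -0.02, 0.06 and -0.02, so that the link proteins were nearly level between the hemispheres by mean. Stimulated animal 2 went against the other 3 animals in Hapln1, with a ratio of region 1 to region 2 of 0.697 against 1.10 to 1.12, and in Hapln4, with 0.612. Astrocyte markers summed to 1109 to 1521 FPKM in region 1 and 589 to 1398 in region 2, and macrophage and microglia markers to 71.7 to 202 and 25.7 to 186. Oligodendrocyte precursor markers summed to 38.3 to 45.2 FPKM in region 1 and 18.5 to 36.9 in region 2, and mature oligodendrocyte markers to 1512 to 2943 and 708 to 1391, both without overlap. The part of these sums was not tested. Region 1 differed from region 2 in the array and its test pulses, in the stimulation of 2 animals and in its side relative to the injury. These cannot be told apart in the control animals, whose array, test pulses and side coincide.

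**Figure D3:**
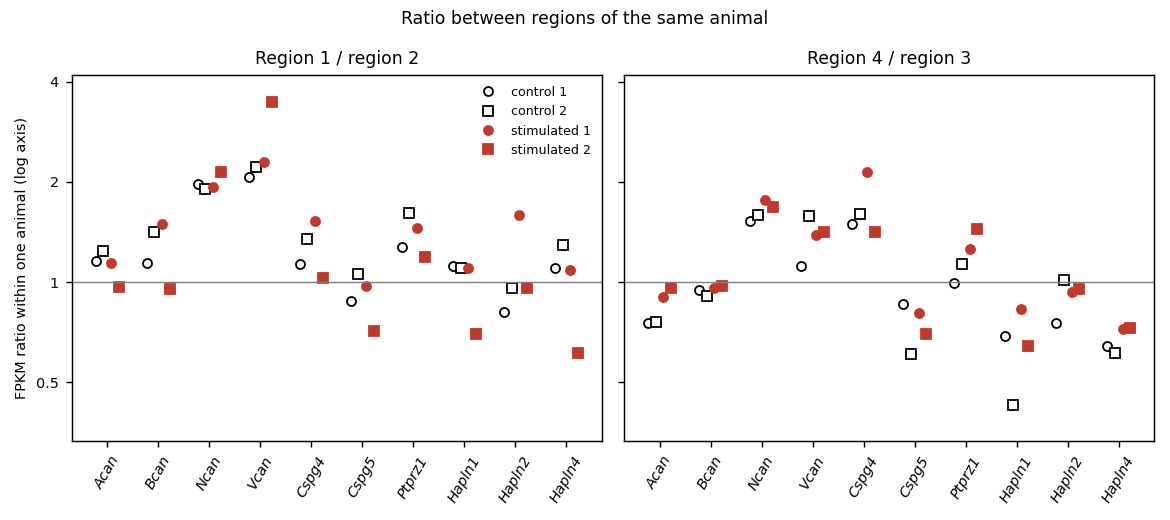
Ratio of FPKM between regions of the same animal (log axis), region 1 over region 2 on the left and region 4 over region 3 on the right, for the 10 genes, with open symbols for control and filled symbols for stimulated animals. Ncan sits at 1.91 to 2.14 on the left and 1.52 to 1.77 on the right in all 4 animals, and Hapln4 at 0.610 to 0.727 on the right.

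Stimulated and control animals were compared within each region, 2 against 2. None of the 10 genes passed in any of the 5 regions. Over all genes 0% passed in regions 1 to 4 and 0.0197% in region 5. No gene of the set had an unadjusted p under 0.05 in any region, while 828 (5.44%), 215 (1.41%), 522 (3.43%), 341 (2.24%) and 546 (3.59%) of all genes did in regions 1 to 5. An exact permutation test of 2 against 2 cannot give a two-sided p below 0.333, so single values cannot be settled in this design.

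The largest differences were in region 1. Vcan was 5.45 and 5.32 FPKM in the control and 5.69 and 16.1 in the stimulated animals, a log2 difference of 0.83 (SE 0.55, adjusted p = 0.71). Ncan had a log2 difference of 0.72 (SE 0.46, adjusted p = 0.71). Stimulated animal 2 supplied nearly all of both, since without it the values were 0.08 for Vcan and 0.11 for Ncan. Acan, at low levels, was 0.952 and 0.617 in control and 0.549 and 0.467 in stimulated animals, a log2 difference of -0.60 (SE 0.30, adjusted p = 0.71). Cspg4 was 2.85 and 2.58 and 3.27 and 3.37, a log2 difference of 0.29 (SE 0.16, adjusted p = 0.71). For these 4 genes the groups did not overlap, while 40.6% of all genes did not overlap in region 1. Hapln4 (-0.48, SE 0.37) and Hapln1 (-0.37, SE 0.29) differed by more than Cspg4, but their groups overlapped. Without stimulated animal 2 their values were -0.03 and -0.02.

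Marker sums differed between the groups in region 1 as well. Astrocyte markers summed to 1109 and 1138 FPKM in control and 1480 and 1521 in stimulated animals, and macrophage and microglia markers to 71.7 and 85.1 and 119 and 202. Oligodendrocyte precursor markers were also higher in stimulated animals (38.3 and 38.6 against 43.7 and 45.2), as were fibroblast markers (24.8 and 39.6 against 41.3 and 130). Neuron markers were lower (1170 and 1178 against 789 and 1094), as were cortical excitatory neuron markers (352 and 363 against 249 and 283). None of these sums overlapped between the groups. The other sums did overlap, those of mature oligodendrocytes (1729 and 1890 against 1512 and 2943), spinal neurons, fast-spiking neurons, Schwann cells and endothelial cells. The part of the sums was not tested.

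In region 2 Ncan had the largest value, 0.65 (SE 0.41, adjusted p = 0.95), and without stimulated animal 2 it was 0.11. Acan there was 0.823 and 0.498 FPKM in control and 0.481 and 0.482 in stimulated animals. Acan, Bcan and Ncan did not overlap in region 2, against 27.0% of all genes. In cord, the log2 differences of the 10 genes lay between -0.36 and 0.19. Of the 10 genes, 3, 4 and 3 did not overlap in regions 3, 4 and 5, where 29.9%, 20.2% and 24.6% of all genes did not. The lowest unadjusted p in the set was 0.062, for Ptprz1 in region 3 (-0.29, SE 0.11, adjusted p = 0.96). It was 30.1 and 25.8 FPKM in control and 23.9 and 21.8 in stimulated animals there.

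The effect of stimulation in region 1 was set against that in region 2 by differences within each animal. None of the 10 genes passed, against 0% of all genes, with 575 genes (3.78%) and none of the set at an unadjusted p under 0.05. Hapln4 had the largest value, -0.55 (SE 0.31, adjusted p = 0.88), and Ncan one of the smallest, 0.07 (SE 0.12, adjusted p = 0.91).

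**Figure D4:**
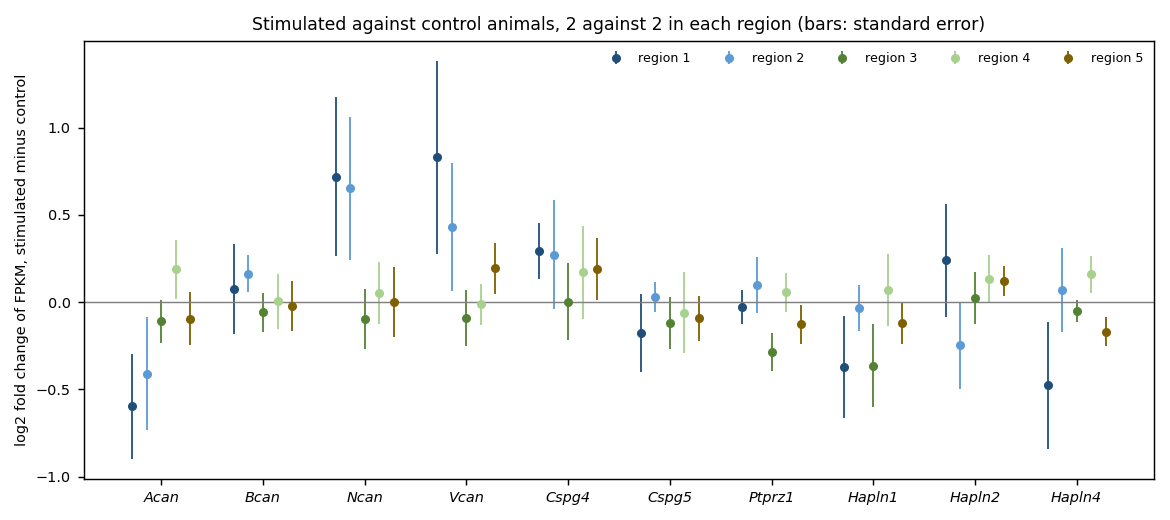
Log2 fold change of FPKM, stimulated minus control, of the 10 genes in each region, with 2 animals a group and bars for the standard error. The values for Ncan (0.72 and 0.65) and Vcan (0.83 and 0.43) in regions 1 and 2 have wide bars, and no gene passed the test.

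The genes that make, sulfate, cut, bind and clear the chains were followed as 7 lists. Of the 56 genes written down, 55 were in the table. The lists were drawn up from general knowledge, with earlier results of these data known. The counts below are over the genes that passed the filter on low levels. The background share of each comparison is the one given above. Of 39 list results followed through every alternative, 15 kept their call in all of them, and the others missed the threshold in at least 1.

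Enzymes of chain synthesis moved little. Between white matter and cord, 4 of 10 were higher and 1 lower, led by Xylt1, which starts the chain (0.60, SE 0.08), and B3gat3, which completes its linker (0.38, SE 0.06). At the lesion against region 3, Chsy1, a polymerase of the chain, was higher (0.65, SE 0.21) and 2 were lower, among them its partner Chpf (-0.26, SE 0.09). Against region 5, 4 of 10 were lower, led by Chpf (-0.37, SE 0.09) and B4galt7 (-0.36, SE 0.11). Over 11 alternatives Chpf was lost in 7 and Chsy1 in 4 against region 3, and B4galt7 was lost in 8 and Chpf in 4, quantile scaling among them, against region 5. Over all genes, 299 were lower and 329 higher against region 5 with upper-quartile scaling. None passed between regions 1 and 2 or regions 5 and 3.

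Of 9 sulfation and epimerisation enzymes, 2 were higher and 4 lower in white matter than in cord. The largest were Chst3, the 6-sulfotransferase (-1.31, SE 0.11), and Chst14, which sulfates dermatan units (-0.65, SE 0.20). Chst3 was 0.908 to 1.26 FPKM in region 1 and 0.497 to 0.823 in region 2, and it alone passed between these (0.75, SE 0.17, adjusted p = 0.013). It was lost in 3 of 11 alternatives, quantile scaling among them, and the difference of Chst14 between the tissues in 4, again with quantile scaling among them. Chst15 had a log2 difference of -0.34 (SE 0.10, adjusted p = 0.0498) between regions 4 and 5, a call lost in 9 of 11 alternatives.

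The lysosomal enzymes that degrade the chains were higher at the lesion than in the cord above it. Of 9, 7 were higher in region 4 than in region 3 and 0 lower, and their median log2 difference was 0.79 against -0.02 over all genes. Against region 5, 0 of the 9 passed, with a median of 0.24 against -0.14 over all genes. None passed between region 5 and region 3, where all 9 lay above 0, with a median of 0.56 against 0.11. Gusb, beta-glucuronidase, was 2.61 to 3.38 FPKM in region 3 and 4.80 to 12.5 in region 4 (1.54, SE 0.33, adjusted p = 0.0035). Hexa, a hexosaminidase subunit, was 22.8 to 26.5 and 39.7 to 74.4 (1.21, SE 0.25, adjusted p = 0.0029). The sum of macrophage and microglia markers rose over the same step, as given above, and its part was not tested. Between white matter and cord 8 of the 9 were lower, led by Hyal1, a hyaluronidase (-1.43, SE 0.10), and Gusb (-1.06, SE 0.21), and between regions 1 and 2 Galns (0.94, SE 0.28) and Ids (0.41, SE 0.12) were higher. Galns was lost in 6 of 11 alternatives, log2(FPKM + 1) and no filter among them, and Ids in 4. Gusb at the lesion was lost without either control animal and Hexa without control animal 1 (adjusted p = 0.053).

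Of 7 ADAMTS proteases that cut lecticans, Adamts8 passed the filter through white matter alone and is set apart. Of the other 6, 1 was higher and 4 were lower in white matter than in cord. Adamts4 (-1.98, SE 0.18) and Adamts5 (-1.78, SE 0.22) differed most. Adamts4 was 3.68 to 5.01 FPKM in region 1 and 0.895 to 3.58 in region 2 (1.42, SE 0.28, adjusted p = 0.0064), and Adamts9 was higher there as well (1.31, SE 0.32, adjusted p = 0.018). Adamts4 was lost in 3 and Adamts9 in 4 of 11 alternatives. At the lesion Adamts15 alone passed against region 3, with 0.650 to 1.23 and 0.315 to 0.399 FPKM (1.40, SE 0.27, adjusted p = 0.0019).

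Of 4 receptors through which the chains act on axons, 3 were higher and 1 was lower in white matter than in cord. The largest differences among them were those of Rtn4r and Rtn4rl1, both higher in white matter. Rtn4r, the Nogo receptor, was 15.3 to 32.7 FPKM in white matter and 0.873 to 2.09 in cord (4.19, SE 0.11, adjusted p = 8.3e-17). Rtn4rl1 was 10.6 to 19.97 and 1.84 to 3.80 (2.60, SE 0.10, adjusted p = 5.5e-14). Both are neuronal genes, and the cortical neuron markers given above differed in the same direction. At the lesion 3 of the 4 receptors were lower than in region 3, with Rtn4rl1 at -0.69 (SE 0.16) and Rtn4r at -0.64 (SE 0.17). Rtn4r was also lower than in region 5 (-0.69, SE 0.17), and Ptprf, the LAR phosphatase, was higher in region 1 than in region 2 (0.41, SE 0.10). Of 11 alternatives, Rtn4r was lost in 4 against region 3 and in 6 against region 5, and Rtn4rl1 and Ptprf were lost in 3 each.

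Of 5 partners of the lattice, the tenascins among them, 3 were higher in region 1 than in region 2, 2 in region 4 and 1 in region 5 than in region 3, and 1 was higher and 2 were lower in white matter than in cord. Tnc, tenascin-C, was 2.24 to 4.29 FPKM in region 1 and 0.568 to 1.48 in region 2 (2.04, SE 0.30, adjusted p = 0.0012). It was 0.409 to 0.746 in region 3, 1.20 to 2.13 in region 4 and 1.60 to 2.16 in region 5. Both steps passed, with 1.49 (SE 0.30, adjusted p = 0.0023) for region 4 and 1.74 (SE 0.30, adjusted p = 0.0037) for region 5. Without stimulated animal 1 Tnc was lost between regions 1 and 2 (adjusted p = 0.086) and regions 5 and 3 (adjusted p = 0.075). Tnr, tenascin-R, the net tenascin, was higher by less (0.33, SE 0.10) in region 4 than in region 3. Mdk, midkine, a ligand of Ptprz1, was higher in region 1 than in region 2 (0.52, SE 0.14) and lower in white matter than in cord (-0.54, SE 0.09), as was the contactin Cntn1 (-0.80, SE 0.06). Tnr at the lesion and Mdk between regions 1 and 2 were each lost in 4 of 11 alternatives.

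Among 7 other chondroitin or dermatan sulfate proteoglycans and Hapln3, 3 were lower in white matter than in cord, led by Dcn, decorin (-1.93, SE 0.29), and Spock3 (-1.40, SE 0.16). Bgn, biglycan (1.77, SE 0.44), and Dcn (1.66, SE 0.45) were higher in region 1 than in region 2, and both are made by fibroblasts. The sum of 5 fibroblast markers was 24.8 to 130 FPKM in region 1 and 6.26 to 37.0 in region 2, and its part was not tested. At the lesion Spock2, testican-2, was lower than in region 3 (-0.52, SE 0.13). Bgn and Dcn between regions 1 and 2 were lost in 4 of 11 alternatives each, and Spock2 at the lesion in 3. No gene of the 7 lists passed in any stimulation comparison.

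**Figure D5:**
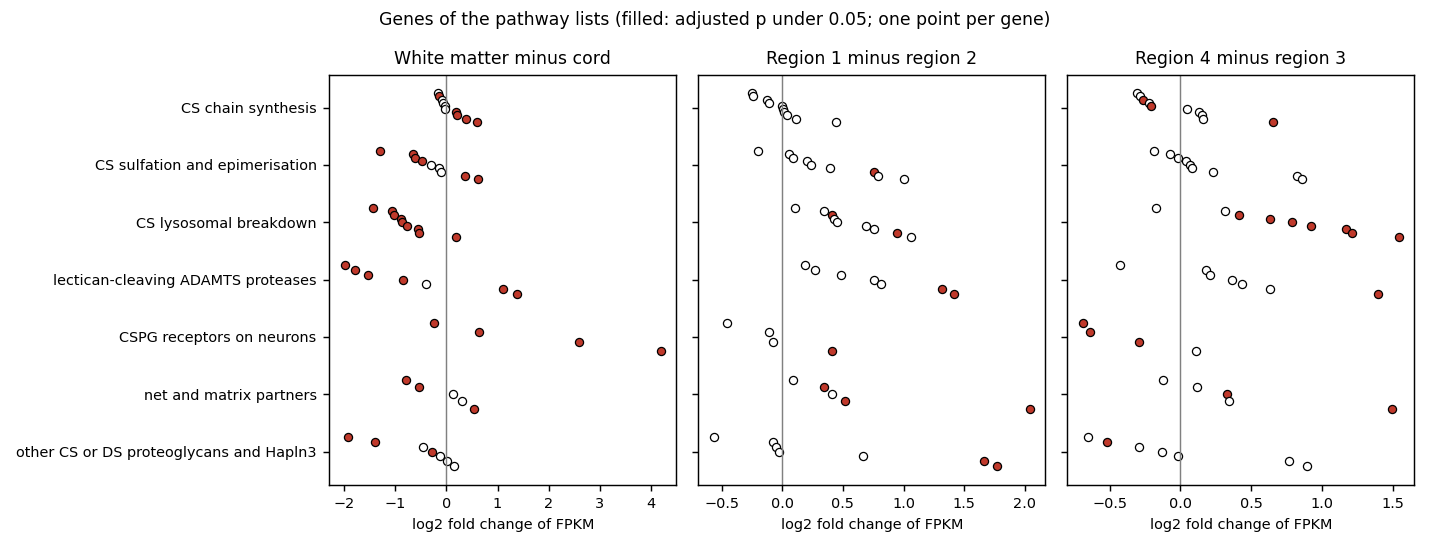
Log2 fold change of FPKM of each gene in the 7 pathway lists, for white matter minus cord, region 1 minus region 2 and region 4 minus region 3, with filled points for an adjusted p under 0.05. Of the lysosomal enzymes 7 of 9 are filled and right of 0 for region 4 minus region 3, and Rtn4r (4.19) and Rtn4rl1 (2.60) lie farthest right in white matter.

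The genes whose log2 FPKM followed each member most closely over the 20 libraries were listed as a description, since the libraries share animals and regions. Hapln2 went with Sv2c, Slc5a11 and B3galt5 (r = 0.994, 0.994 and 0.992). Cspg5 went with Acvr1b, Fam171a2 and Fkbp11 (each r = 0.994), and Hapln1 with Gpr158, Stxbp5l and Dnajc6 (0.987, 0.987 and 0.986). Acan went with Kctd9, Trpm3 and Syt2 (0.990, 0.988 and 0.988), where Syt2 is a synaptotagmin of fast-spiking neurons. The fast-spiking sum, which includes Syt2, had r = 0.602 with Acan. The spinal neuron sum had 0.974 and the mature oligodendrocyte sum 0.943. Bcan went with Mal, a myelin protein, Olig1 and Psat1 (0.976, 0.971 and 0.970).

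Ncan went with Ninj1, Emilin1 and Tnfrsf1b (r = 0.949, 0.943 and 0.941) and Vcan with Igsf10, Dnah11 and Sgms2 (0.978, 0.977 and 0.977). Cspg4 went with Itga6, LOC100911674 and Ammecr1l (0.983, 0.982 and 0.981) and Ptprz1 with Arid2, Sec31a and Sox9 (0.951, 0.944 and 0.939). Hapln4 had the loosest companions, Osbpl6, Gtf3c1 and Glrb (0.925, 0.923 and 0.908), of which Glrb is a glycine receptor subunit. Among the marker sums, that of spinal neurons followed Hapln2 most closely (r = 0.977 over 20 libraries), then that of mature oligodendrocytes (r = 0.965). The cortical excitatory neuron sum ran against Hapln2 (r = -0.964), so these values largely follow the split between tissues. With region means taken off, they were 0.459, 0.548 and -0.153. The astrocyte sum followed Cspg4 (r = 0.953), and then the Schwann cell sum (r = 0.913). Within the 12 cord libraries the macrophage and microglia sum followed Cspg4 most closely (r = 0.918). The astrocyte sum had 0.875 there and the oligodendrocyte precursor sum 0.614.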

How the data were processed

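RNA-seq of 20 libraries, from 5 regions of 4 rats, was analysed from 1 table. The authors depleted ribosomal RNA, sequenced all libraries together, aligned reads to Rnor6 with TopHat2 2.1.0 and obtained FPKM values with Cufflinks 2.2.1. The authors deposited FPKM per gene with values under 0.1 raised to 0.1, and 0 columns were without a sample. The kit was stranded, but alignment used the default settings, which for TopHat2 do not use strand, so overlapping and antisense genes are uncertain. FPKM alone does not show how many reads lie behind a value, and 2 animals per group limit precision.

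FPKM values were log2-transformed (floor 0.1), and genes with at least 1 FPKM in any library were kept. Limma 3.58.1 in R 4.3.3 (lmFit, eBayes with trend) was fitted over all 15210 genes. Region contrasts used a mean per region in all 20 libraries, stimulation used the 4 libraries of a region, and the difference of stimulation effects used differences within animals. Adjustment for multiple tests followed Benjamini and Hochberg over these genes, with 0.05 as the threshold. Fold changes are on the log2 scale of floored FPKM. The fits were tested on simulated data. Other steps used Python 3.11.15 with pandas 2.3.3 and matplotlib 3.10.9. Promoters came from RefSeq (GRCr8), with entries for 8 of the 10 genes.

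The members and lists were chosen with earlier results of these data known. A marker of the cortical neuron list is not reported here and was left out of its sum. The text names the 10 members, for each the 3 genes of highest r, the neighbouring link protein and lectican genes, and from each list the 2 called genes of largest change per region comparison. A group and number in the labels name 1 animal, so the regions are paired by design. Their deviations from region means had correlations of 0.588 (regions 1 and 2), 0.208 (3 and 4), 0.125 (3 and 5) and 0.028 (4 and 5). Alternatives were log2(FPKM + 1), no filter, quantile or upper-quartile scaling, eBayes without trend, the animal or replicate number as a block, stimulation as a covariate, 1 model of all libraries, and leaving out each animal.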

Additional observations from a re-analysis of the deposited data

Results flagged for a closer look

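Each member was examined for a library far from the other libraries of its region, and of white matter as a whole. Of 60 such groups 9 held one. Chance would flag about 1 in 20 independent groups, but these groups share libraries and hold genes that vary together. The count therefore cannot be set against chance. Of the 9, 6 came from the white matter libraries of stimulated animal 2, all of Ncan or Vcan. Ncan was 74.9 FPKM in its region 1, against 28.7 to 32.0 in the other 3 animals, and this value also stood apart among all 8 white matter libraries. Ncan was 35.0 in its region 2, against 15.1 to 16.6. Vcan was 16.1 in its region 1, against 5.32 to 5.69, and again stood apart among all 8, and 4.62 in its region 2, against 2.40 to 2.63. The other 3 were in control animals. Acan was 0.823 in region 2 of control animal 1, against 0.481 to 0.498. Hapln2 was 11.2 in the same library, against 7.28 to 7.66. Hapln1 was 7.94 in region 3 of control animal 2, against 4.97 to 5.20.

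In 5 cases both stimulated animals lay above both controls in 1 region and below them in another. The difference between the regions was not tested in these. Acan lay above in region 4 and below in regions 1, 2 and 3, and its log2 changes differed by 0.79, 0.60 and 0.30. Ptprz1 lay above in region 4 and below in region 3, a difference of 0.34. Hapln4 lay above in region 4 and below in region 5, a difference of 0.33.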

How the results depend on the processing

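Of 37 member results followed through every alternative, 21 kept their direction and their side of the threshold in all of them. Over all values there were 372 of that kind, 19 that missed the threshold, 14 that newly passed it and 2 that changed sign. Both sign changes were of Ncan without stimulated animal 2, to -0.21 between white matter and cord (-0.21 to 0.25 over the animals left out) and to -0.0091 in the difference of stimulation effects (-0.0091 to 0.14). Leaving out 1 animal gave ranges of genes passing of 26 to 3674 (0 to 4 members) for region 1 against 2, 523 to 4909 (1 to 6) for region 4 against 3, 5 to 1097 (0 to 0) for 4 against 5 and 54 to 1237 (0 to 1) for 5 against 3. For stimulation the ranges were 0 to 228, 0 to 548, 0 to 0, 8 to 140 and 0 to 147 genes in regions 1 to 5 and 0 to 113 for the difference of effects, with 0 members in each. With no filter on low levels, 698 genes passed for region 1 against 2 (main 1310), 578 for 4 against 5 (main 1216), and 6, 1, 3 and 22 for stimulation in regions 1, 2, 3 and 5 (main 0, 0, 0 and 3) and 2 for the difference of effects. Without it, 2 members passed for 1 against 2 (main 3) and 3 for 4 against 3 (main 4). Quantile scaling gave 4842 for 4 against 3 (main 2984), 470 for 4 against 5 and 1109 for 5 against 3 (main 657), and upper-quartile scaling gave 4602, 628 and 1170, with 2246 for 1 against 2 and 0 for stimulation in region 5. Both scalings called 1 member, Ptprz1, for 4 against 5. For stimulation in region 5, log2(FPKM + 1) gave 0 and eBayes without trend 1. One model of all 20 libraries gave 1 gene in each of regions 1 to 4 and 18 in region 5. The cause of these shifts was not tested. Few animals limit every value, and FPKM alone does not show how many reads lie behind it.

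With the animal as a block, 1966 genes passed for region 4 against 5, and 1 member, Cspg4, for 5 against 3. It changed the calls of Ncan and Ptprz1 for 4 against 3, as given above, and no other. Stimulated and control animals share only a number in the labels. Same-numbered libraries had correlations of their deviations between -0.213 and 0.321 in the 5 regions. The replicate block for these gave 443 genes for stimulation in region 5 and 17 for the difference of effects, and 0 members in each.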
